A study of Macaca mulatta with 5 samples.

Results

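Anchor hubs are places in a Hi-C map where several chromatin loops end at the same short stretch of the genome. In each of the 2 maps, loop anchors that overlapped by at least 1 bp were merged into regions, and a region with 3 or more loop ends was taken as a hub. The hubs were chosen by the measured loop calls themselves, so their number and their ends are a description. The saline map held 99 hubs among 9789 anchor regions (1.01% of regions), and 296 of its 5507 loops ended in a hub. The morphine map held 347 hubs among 14173 regions (2.45% of regions), and 1032 of its 8425 loops ended in one.

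The study asked how the folding of chromatin in cortical neurons differs after long exposure to morphine, an opioid drug that acts mainly through the mu-opioid receptor. The neurons were purified from the cortex of male rhesus monkeys (Macaca mulatta) aged 3 to 4 years. The morphine group received subcutaneous morphine 3 times daily for 90 days, at a dose that was raised from 3 to 15 mg/kg, and the saline group received the same volume of saline on the same schedule. Each group comprised 2 monkeys. The labels list 3 morphine and 2 saline libraries, so 1 or both morphine monkeys were sampled more than once, without a label that ties libraries to animals. All loop, differential loop and domain lists carry only a group name, so each was treated as 1 map pooled over its group. There is thus 1 value per group, no replicate check and no p-value. All intervals are 95% intervals that cover counting error, or the spread over regions or loops within a map, and not the spread between monkeys. Regions and loops that lie near each other are not independent, and the intervals were not adjusted for the number of comparisons made.

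In the widely used model of loop formation, the ring-shaped cohesin complex extrudes chromatin until it is halted, most often at sites bound by the protein CTCF, and a loop appears where 2 such sites meet. A site that halts cohesin on many occasions, or an enhancer or promoter that meets several partners, can appear as the anchor of several loops. Cohesin halted at the same kind of site also marks the edges of topologically associating domains, stretches within which contacts are more frequent than across their edges. Neither CTCF, cohesin nor gene activity was measured in these files. The build that the submitters' processing notes name, hg19, is a human one whose chromosome ends some positions run past, and no rhesus assembly is named. Hubs are therefore given by position as in the files, counted from 1, and no gene or sequence is assigned to them.

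Most hubs only just met the threshold. In the saline map 93 regions had 3 ends and 6 had 4. In the morphine map 294 had 3 ends, 46 had 4, 6 had 5 and 1 had 6. Just outside the threshold, 1021 saline and 1922 morphine regions had 2 ends. The summed contacts of the loops at a region had a median of 41 for 2 ends, 66 for 3 ends and 69 for 4 ends in the saline map. The corresponding morphine medians were 53, 82 and 124.5. A sum mixes loops called with anchors of 5 kb and of 10 kb, whose pixels differ in area, so these sums are descriptive.

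The ends of a hub did not come from a single loop recorded several times. Every hub of either map reached as many different partner regions as it had ends. The smallest gap between 2 partners of a hub had a median of 80 kb (70 to 95) for saline and 87.5 kb (80 to 90) for morphine. It was under 50 kb at 20 saline hubs (20.2%, exact Clopper-Pearson interval 12.8 to 29.5) and at 59 morphine hubs (17.0%, 13.2 to 21.4). The partners of a hub were spread over a median of 290 kb (230 to 330) for saline and 327.5 kb (302.5 to 357.5) for morphine. When partners within 50 kb of each other were counted once, 79 saline and 308 morphine hubs were left.

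The larger number of morphine hubs moved with the number of loops called. The ratio of the hub shares, morphine over saline, was 2.42 (1.94 to 3.02). When only the 5507 morphine loops with the lowest donut FDR were kept, as many as the saline list holds, the morphine map had 144 hubs (1.50% of its regions, ratio 1.48, 1.15 to 1.91). When the 5507 morphine loops with the most contacts were kept instead, it had 160 (1.67%, ratio 1.65, 1.29 to 2.12). Among loops with 10 kb anchors only, there were 36 saline and 61 morphine hubs, and the interval of the ratio included 1 (1.45, 0.961 to 2.18). The part of depth in the excess was not tested, because library depths were not used here.

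Hubs were unevenly spread over the chromosomes in the morphine map. Chromosome 19 had 42 hubs among 979 morphine regions (4.29%, 3.11 to 5.75) and 6 among 501 saline regions (1.20%, 0.441 to 2.59). Chromosome 20 had 22 morphine and 3 saline hubs (3.56% and 0.882% of regions), chromosome 16 had 35 and 11 (3.50% and 2.00%), and chromosome 10 had 34 and 6 (3.29% and 1.05%). These 4 chromosomes, a set known from earlier results of these data to have the largest excess of morphine loops, held 133 of the 347 morphine hubs (38.3%) but 25.6% of the morphine regions. In the saline map they held 26 of 99 hubs (26.3%) and 20.1% of the regions. Outside them the hub share was 2.03% (1.77 to 2.32) in the morphine and 0.933% (0.732 to 1.17) in the saline map. Chromosome 1 had 50 morphine hubs (3.35%) and 13 saline hubs (1.20%), more than any other single chromosome, and chromosome 13 had 18 and 3 (3.34% and 0.843%). The morphine shares of both were above that of chromosome 10. On chromosome 5 the morphine map had fewer loops than the saline map, 176 against 207, and yet 8 hubs against 4, with intervals that overlapped (2.61%, 1.13 to 5.07, and 1.07%, 0.293 to 2.72). Chromosome 18 had 2 hubs in each map. No hub was found on chromosome X among 124 saline regions, which allows a share of up to 2.93%, or among 167 morphine regions, which allows up to 2.18%.

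**Figure D1:**
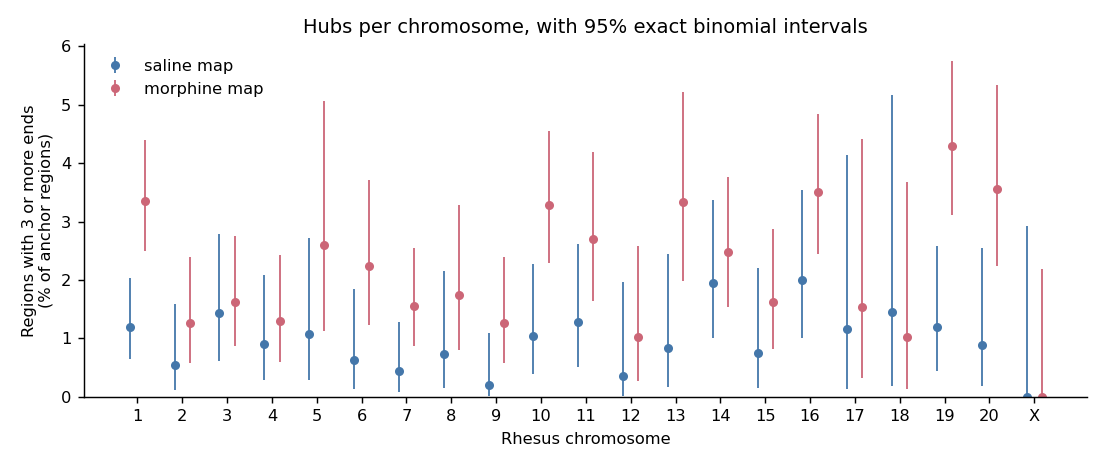
Each point is the share of a chromosome's anchor regions that are hubs, in percent, in the saline map (blue) or the morphine map (red), with 95% exact binomial bars. The highest morphine share is 4.29% on chromosome 19, the highest saline share is 2.00% on chromosome 16, and both maps are at 0 on chromosome X.

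The most connected hub was the stretch from 33690001 to 33700000 of chromosome 19. In the morphine map its 6 loops all ran to the right, towards higher coordinates. The loops with 10 kb anchors spanned 100 kb with 41 contacts and 240 kb with 60 contacts. The loops with 5 kb anchors spanned 75, 160, 370 and 405 kb, with 24, 23, 21 and 18 contacts. Their enrichment, the observed contacts over those expected from the donut-shaped surroundings of the pixel, lay between 2.43-fold and 4.08-fold. The same region had 3 saline loops, also all to the right and all with 10 kb anchors. They spanned 160, 260 and 370 kb, with 26, 18 and 20 contacts and enrichments of 4.79-fold, 5.72-fold and 5.23-fold. The authors' deposited donut FDR of the morphine loop of 75 kb was 0.111. The highest of the 4 deposited FDR values was 0.393, 0.458 and 0.466 at the morphine loops of 75, 370 and 405 kb. It was at most 0.0390 at the other morphine loops of this hub and at most 0.0215 at its saline loops. The loops of 160 and 370 kb were present in both maps, called with anchors of different sizes. The saline loop of 260 kb and the morphine loop of 240 kb ended in different bins and did not match. The hub lay in a domain boundary bin of the morphine map (boundary score 0.731) and 20 kb from a boundary of the saline map.

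A second highly connected hub, on chromosome 16 from 20980001 to 20990000, kept its pattern of partners between the maps. Its saline loops were 3 to the left, of 335, 180 and 130 kb, and 1 to the right, of 55 kb. All 4 had a morphine counterpart, and the morphine map added a loop of 430 kb to the left with 26 contacts. The loop of 335 kb, with 5 kb anchors in both maps, had 17 contacts in the saline and 35 in the morphine map, against 2.62 and 4.80 expected. The loop of 55 kb, also with 5 kb anchors in both, had 46 and 78 contacts against 8.44 and 21.2 expected. Enrichment therefore moved in opposite directions at the 2 loops, from 6.48-fold to 7.29-fold at the first and from 5.45-fold to 3.67-fold at the second. The exact Poisson intervals of the morphine and saline values overlapped at both.

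**Figure D2:**
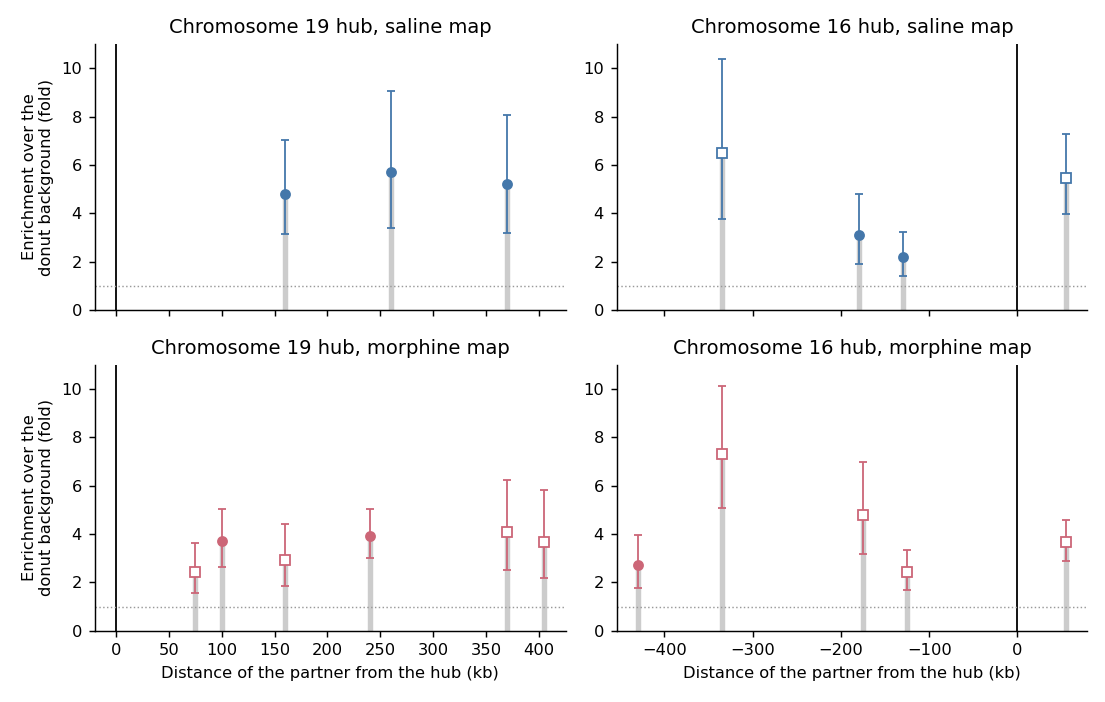
Enrichment over the donut background (fold) of each loop at the chromosome 19 hub from 33690001 and the chromosome 16 hub from 20980001, against the distance of its partner in kb, negative to the left; bars are 95% exact Poisson intervals, filled circles are 10 kb and open squares 5 kb anchors, and the dotted line marks 1. The chromosome 19 loops all run to the right, 3 in the saline and 6 in the morphine map, while the chromosome 16 hub has 4 saline and 5 morphine loops on both sides.

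The chromosome 16 hub was also part of the largest group of hubs joined to each other by loops. In the morphine map, 5 hubs between 20550001 and 21040000, a stretch of 490 kb, were linked by 4 hub-to-hub loops and carried 19 ends in all. They began at 20550001, 20730001, 20850001, 20980001 and 21035001. The same places had 0, 0, 2, 4 and 3 ends in the saline map. The hub from 20550001, with 5 ends, had contacts of 18, 26, 27, 35 and 26 at enrichments from 1.98-fold to 2.82-fold, and the donut FDR of its first 2 loops was 0.129 and 0.3002 in the authors' deposited table. The next largest morphine groups had 4 hubs each, 1 on chromosome 10 between 13810001 and 14290000 and 1 on chromosome 16 between 10680001 and 12030000. The largest saline group had 3 hubs, on chromosome 3 from 81490001 to 82120000, which were joined pairwise by 3 loops.

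Hubs were linked to each other more widely in the morphine map, where hubs also were more numerous. There, 110 of the 347 hubs had a loop to another hub (31.7%, 26.8 to 36.9), through 70 hub-to-hub loops. Of the 99 saline hubs, 11 had one (11.1%, 5.68 to 19.01), through 7 loops. Part of this follows from the numbers of ends and of hubs, and a loop to a hub was also found at 15.8% of morphine regions with 2 ends (14.2 to 17.5) and at 7.54% of saline ones (6.00 to 9.34). Closed triangles, in which 3 regions are joined pairwise, numbered 83 for morphine and 27 for saline. A hub was a corner of a triangle in 76 of 347 morphine cases (21.9%, 17.7 to 26.6) and in 15 of 99 saline cases (15.2%, 8.74 to 23.8). Regions with 2 ends were a corner in 8.38% of morphine cases (7.18 to 9.71) and 6.46% of saline cases (5.03 to 8.15). A corner needs at least 2 ends, and more ends give more chances for one, so no more is read from these shares.

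Among the other morphine hubs with 5 ends, the partners differed widely in distance. The hub on chromosome 3 from 51460001 to 51470000 had 5 loops, all to the left and none inside a single domain. They spanned 850, 870, 2430, 2530 and 2720 kb, with 23, 22, 14, 15 and 11 contacts and enrichments between 4.40-fold and 12.5-fold. Only the loop of 850 kb had a saline counterpart, with 11 contacts. It had 5 kb anchors and 8.43-fold enrichment in the morphine map, and 10 kb anchors and 14.2-fold enrichment in the saline map. The contacts of the 2 maps therefore come from pixels of different area. On chromosome 20, the hub from 2690001 to 2700000 had a loop of 110 kb to the left with 85 contacts, an enrichment of 17.5-fold (14.0 to 21.6), against 22 contacts and 8.83-fold in the saline map. Its 4 loops to the right reached 860, 1330, 1450 and 1485 kb. On chromosome 14, the hub from 4980001 to 4990000 had 3 saline loops to the right with 16, 30 and 20 contacts. The authors' deposited donut FDR of the saline loop with 16 contacts was 0.389, and that of its morphine counterpart was 0.356. Without this loop the saline region would not meet the threshold. The morphine map held counterparts of all 3, called with 5 kb anchors, and 2 further loops, of 35 kb to the left and 420 kb to the right.

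On chromosome 19, a morphine hub with 5 ends from 16120001 to 16130000 carried 2 loops of the authors' differential list, which had 22 and 27 contacts at 480 and 225 kb. Its loop with the most contacts spanned 150 kb, with 71 morphine and 23 saline contacts at nearly equal enrichment, 5.78-fold and 6.06-fold. The loops of 480 and 530 kb had fewer contacts but higher enrichments, 8.12-fold and 5.95-fold. The saline map had 1 end in this hub.

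The 6 saline hubs with 4 ends rested on fewer contacts, with sums between 63 and 108. The hub on chromosome 3 from 82110001 belonged to the group of 3 joined hubs and had 64 contacts. The hub on chromosome 4 from 128520001 lay in a boundary bin, and its 4 loops, of 80 to 680 kb, all ran to the right. None lay inside a single domain, which the position of the hub alone can give, because boundary bins lie beside the domains. The hub on chromosome 10 from 34620001 had contacts of 16, 17, 17 and 19 and no end in the morphine map. The hub on chromosome 12 from 64760001 had 1 morphine end, and the hub on chromosome 16 from 31830001 had 2. The chromosome 16 hub from 20980001 was the only one of the 6 that was also a hub in the morphine map.

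The hubs with the most contacts were in part carried by a single loop. The saline hub on chromosome 16 from 55860001 to 55870000 had 244 contacts, of which 189 belonged to a loop of 2420 kb with 4.45 expected contacts (42.4-fold, Poisson interval 36.6 to 48.9). It had no end in the morphine map, and it lay 10 kb from a boundary of score 3.18. The morphine hub on chromosome 9 from 560001 to 570000 had 248 contacts, of which 153 belonged to a loop of 2350 kb with 1.74 expected (87.7-fold, 74.3 to 103). The saline map held this loop with 45 contacts (41.4-fold). These were the most enriched hub loops of their maps, ranked 47 of 5507 and 18 of 8425 among all loops. Enrichments of 20-fold or more were found at 4 of 296 saline and 6 of 1032 morphine hub loops. Over all loops they were found at 116 of 5507 in the saline and 133 of 8425 in the morphine map, a larger share in both.

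Other hubs with many contacts held strong loops of ordinary length. On chromosome 14, from 12800001, a morphine loop of 265 kb had 171 contacts against 41 in the saline map. On chromosome 10, from 14280001, a morphine loop of 60 kb had 130 contacts against 65. On chromosome 5, from 6940001, a morphine loop of 380 kb had 85 contacts against 32. At the chromosome 1 hub from 11920001, with 4 morphine and 3 saline ends, the loops of 120 and 220 kb had 82 and 86 contacts in the morphine map and 36 each in the saline map. In each of these pairs both maps used the same anchor size. Among the saline hubs with most contacts, the loop of 140 kb on chromosome 11 from 108710001 had 63 saline and 142 morphine contacts, and the loop of 190 kb on chromosome 14 from 122840001 had 57 and 75. The hub on chromosome 1 from 38460001 had 3 saline loops with 60, 46 and 25 contacts, each with a morphine counterpart. The saline hub on chromosome 10 from 12790001 had loops of 41, 35 and 38 contacts, none with a morphine counterpart, although the morphine map had 2 ends there.

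Places that were hubs in one map usually carried loop ends in the other map, which the choice of the members did not use. A region with more ends has more loops that could recur there, so part of the differences follows from the number of ends. The size of that part was not tested. Of the 99 saline hubs, 85 overlapped a morphine anchor region (85.9%, 77.4 to 92.0), against 78.3% of saline regions with 2 ends, 52.5% of those with 1 end and 55.5% of all saline regions. Of the 347 morphine hubs, 266 overlapped a saline region (76.7%, 71.8 to 81.0), against 59.9%, 34.3% and 38.8%. The difference between hubs and all regions with fewer ends was 30.7 percentage points (23.7 to 37.6) in the saline and 38.8 points (34.3 to 43.3) in the morphine map. Hubs exceeded the regions with 2 ends by 7.60 points (0.287 to 14.9) and 16.8 points (11.8 to 21.7). Hubs were wider than other regions, since all 99 saline and 309 of 347 morphine hubs were 10 kb wide and the rest 5 kb. Among 10 kb regions only, the shares were 85.9% of saline hubs against 52.2% of other regions, and 74.8% of morphine hubs against 34.5%.

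The number of ends differed more than the presence of an anchor. At the 99 saline hubs the morphine map had no end at 14, 1 end at 25, 2 ends at 35 and 3 or more at 25. At the 347 morphine hubs the saline map had no end at 81, 1 end at 148, 2 ends at 93 and 3 or more at 25. Thus 25.3% of saline hubs (17.1 to 35.0) were hubs in the morphine map too, against 2.74% of all saline regions. Of the morphine hubs, 7.20% (4.72 to 10.5) were hubs in the saline map, against 0.642% of all morphine regions. The remaining 322 morphine and 74 saline hubs met the threshold in 1 map only, and at most of these the other map had 1 or 2 ends. Here too, regions with more ends have more loops that could recur, so no more is read from these shares.

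**Figure D3:**
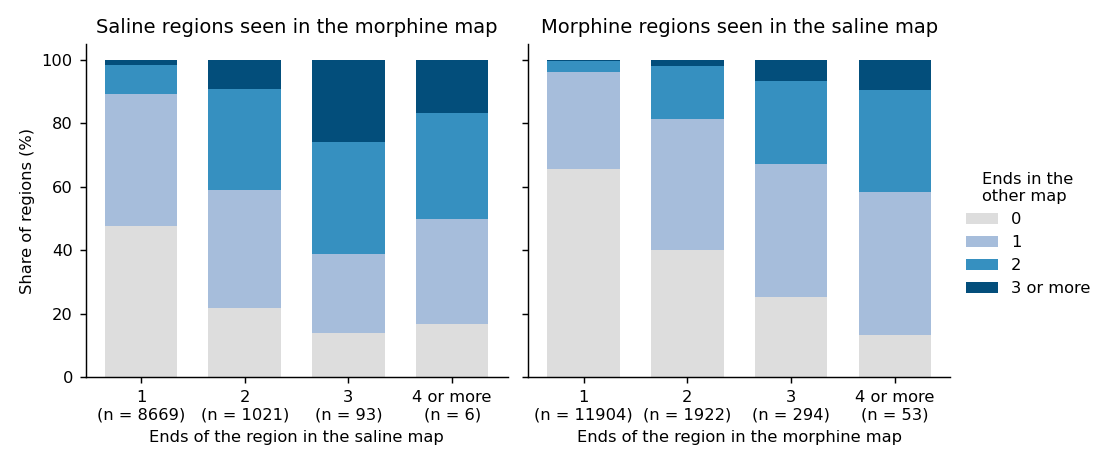
Stacked bars give the share of regions, in percent, with 0, 1, 2 or 3 or more ends in the other map, for regions grouped by their own number of ends (saline regions on the left, morphine regions on the right). The share without an end in the other map falls from 47.5% at 1 end to 14.0% at 3 ends for saline and from 65.7% to 25.2% for morphine.

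The 25 hubs found in both maps lay on 14 chromosomes. At 20 of them both maps had 3 ends, at 5 the morphine map had more, and at none the saline map had more. The summed contacts were higher in the morphine map at 21 of the 25. These sums mix anchor sizes and, at 5 hubs, unequal numbers of ends. Over all loops matched at the same anchor size, hub or not, 77.9% of 2267 had more contacts in the morphine map. In 15 of these hubs all loops ran to 1 side in both maps, and the side was the same in all 15. Each of these hubs had matched loops, and a matched loop runs to the same side in both maps. The agreement of the sides is therefore no separate result. All saline loops had a morphine counterpart at 15 of the 25, and all morphine loops had a saline counterpart at 10. The 5 with unequal ends were on chromosome 1 from 11920001 (4 morphine and 3 saline ends), on chromosome 14 from 4980001 (5 and 3), on chromosome 16 from 20980001 (5 and 4) and on chromosome 19 from 33690001 (6 and 3) and from 37150001 (4 and 3). The last of these had saline contacts of 31, 24 and 23 and morphine contacts of 11, 61, 60 and 22.

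Single hub loops were found in the other map about as often as other loops. A counterpart, with both anchors within 10 kb, existed for 179 of 296 saline hub loops (60.5%, 54.7 to 66.1) and for 62.5% of the other saline loops, with a background of 62.4% over all saline loops. It existed for 411 of 1032 morphine hub loops (39.8%, 36.8 to 42.9) and 41.0% of the others, with a background of 40.8%. The differences were -2.01 points (-7.73 to 3.71) and -1.13 points (-4.32 to 2.06), and both intervals included 0. Most hubs therefore mixed matched and unmatched loops. Some but not all loops had a counterpart at 59 of 99 saline and 266 of 347 morphine hubs, all had one at 28 and 16, and none had one at 12 and 65.

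Loops of the authors' deposited differential lists were less frequent at morphine hubs than elsewhere. They made up 52 of the 1032 morphine hub loops (5.04%, 3.79 to 6.56) and 7.37% of the other morphine loops, with 7.09% over the whole map. The difference was -2.33 points (-3.79 to -0.872). In the saline map they made up 7 of 296 hub loops (2.36%, 0.956 to 4.81) and 3.76% of the others, with 3.69% over the map, and the difference of -1.40 points (-3.20 to 0.410) included 0. At least 1 such loop ended at 52 of 347 morphine hubs (15.0%, 11.4 to 19.2) and 5 of 99 saline hubs (5.05%, 1.66 to 11.4). The same share over all regions was not computed. A hub has more loops that could be listed, so no more is read from these shares. How the authors selected the loops of these lists is not stated in the labels or headers.

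The hubs with 2 differential loops were few, 3 of 347 morphine hubs (0.865%) and 2 of 99 saline hubs (2.02%). Here too no share over all regions was computed. Besides the chromosome 19 hub from 16120001, the morphine hub on chromosome 2 from 105310001 had differential loops of 60 and 150 kb with 19 and 11 contacts. Its other loops, of 110 and 340 kb, had 39 and 34 contacts and saline counterparts with 32 and 18. The morphine hub on chromosome 16 from 10680001 had 4 loops to the right and no end in the saline map. Its differential loops, of 45 and 1040 kb, had 25 and 17 contacts at a donut FDR of 0.0808 and 0.0797 in the authors' deposited table. The saline hub on chromosome 6 from 87760001 had 3 loops to the right and no morphine end, and its differential loops of 230 and 560 kb had 16 and 20 contacts. The saline hub on chromosome 14 from 30520001 had differential loops of 450 and 800 kb with 22 and 18 contacts. Its remaining loop of 390 kb had 37 contacts and 7.60-fold enrichment in the saline map, and 12 contacts and 3.93-fold enrichment in the morphine map.

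At loops called in both maps with the same anchor size, the ratio of morphine to saline contacts depended on which map had made the region a hub, and the lists that chose the members also gave the contacts. The ratios are therefore a description. For 306 matched loops that ended in a hub of either map, the median ratio of observed contacts, morphine over saline, was 1.60 (1.54 to 1.70), and it was 1.43 (1.38 to 1.46) for 1961 matched loops away from hubs. The ratio of donut-expected contacts was 1.89 (1.76 to 1.98) and 1.65 (1.61 to 1.70). The ratio of enrichment was 0.851 (0.819 to 0.886) at hub loops and 0.843 (0.831 to 0.858) at the others. For 204 loops at hubs of the morphine map only, the observed ratio was 1.77 (1.61 to 1.85). For 66 loops at hubs of the saline map only, it was 1.26 (1.08 to 1.50), an interval that held the value away from hubs. For 36 loops at hubs of both maps it was 1.47 (1.29 to 1.71), and the expected ratio was 1.85 (1.59 to 1.95). On chromosomes 10, 16, 19 and 20 the observed ratio was 2.00 (1.88 to 2.26) at loops of hubs of either map and 2.10 (2.05 to 2.19) at other loops, and elsewhere it was 1.44 (1.33 to 1.54) and 1.29 (1.25 to 1.31). On these 4 the expected ratio was 2.52 (2.29 to 2.68) at hub loops and 2.57 (2.46 to 2.65) at other loops, and on the remaining chromosomes it was 1.67 (1.57 to 1.75) and 1.50 (1.45 to 1.55).

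No concentration of hubs at domain boundaries was detectable at this number of hubs. Within 40 kb of a boundary of the same map lay 9 of 99 saline hubs (9.09%, 4.24 to 16.6), against 5.99% of regions that were no hub and a background of 6.02% of all saline regions. The difference of 3.11 points (-2.58 to 8.79) included 0. In the morphine map 20 of 347 hubs lay there (5.76%, 3.56 to 8.76), against 7.25% of the others and a background of 7.21%, and the difference of -1.48 points (-3.97 to 1.01) also included 0. For comparison, 6.27% of all 10 kb bins between the first and last boundary bins were within 40 kb of a boundary for saline and 6.51% for morphine.

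At a wider distance, a window chosen after the values were seen, morphine hubs were less often near a boundary than the morphine regions with fewer ends. Within 200 kb of a boundary were 60 of 347 morphine hubs (17.3%, 13.5 to 21.7) and 23.6% of the other morphine regions, a difference of -6.32 points (-10.4 to -2.28). Against regions with 2 ends alone (21.5%) the difference of -4.25 points (-8.63 to 0.134) included 0, and the share of all 10 kb bins within 200 kb, 21.2%, lay inside the interval of the hub share. Against the boundaries of the saline map the difference was -4.42 points (-8.48 to -0.351). It was -9.23 points (-14.1 to -4.32) outside chromosomes 10, 16, 19 and 20, and -0.225 points (-7.19 to 6.74) on these 4. Of the saline hubs, 25 of 99 (25.3%) lay there, against 21.6% of the other regions, and the difference of 3.67 points (-4.92 to 12.3) included 0. With the boundaries of the morphine map its sign turned, with 21.2% against 24.2% and a difference of -2.99 points (-11.1 to 5.11). Whether the maps differ in these contrasts between hubs and other regions or loops was not tested, here or in the other comparisons. The median distance to a boundary was 610 kb (540 to 690) for morphine hubs and 525 kb (515 to 540) for other morphine regions. It was 530 kb (350 to 620) and 540 kb (520 to 550) in the saline map.

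Hub loops stayed inside a single domain of their own map at about the rate of other loops, although they were longer. Both anchors lay in 1 domain of the same map for 269 of 296 saline hub loops (90.9%, 87.0 to 93.9), against 88.5% of the other loops and 88.7% of all. The same held for 893 of 1032 morphine hub loops (86.5%, 84.3 to 88.6), against 84.6% and 84.8%. The differences of 2.35 points (-1.04 to 5.75) and 1.92 points (-0.315 to 4.16) included 0. In the morphine map, among loops of 200 to under 400 kb, 88.3% of hub loops and 83.7% of the others lay in 1 domain, a difference of 4.62 points (0.634 to 8.61). The morphine differences in the other 4 span classes included 0. In the saline map all 11 hub loops of 800 kb or more lay in 1 domain (100%, 71.5 to 100), against 169 of 235 others (71.9%, 65.7 to 77.6). By the domains of the other map, saline hub loops exceeded other loops by 6.47 points (1.82 to 11.1) under 100 kb. The excess was 7.17 points (1.60 to 12.7) at 200 to under 400 kb and 18.6 points (0.643 to 36.5) from 800 kb. For morphine hub loops it was 4.86 points (0.955 to 8.77) at 200 to under 400 kb. In the remaining classes these differences included 0.

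Hub loops were longer than other loops in both maps. Span, the distance between anchor midpoints, had a median of 210 kb (180 to 240) for saline hub loops and 140 kb (135 to 140) for the others. In the morphine map the medians were 210 kb (200 to 225) and 130 kb (130 to 140). The medians differed in the same direction within each anchor size. Morphine loops with 10 kb anchors had a median of 280 kb (260 to 310) at hubs and 180 kb (170 to 190) elsewhere, and those with 5 kb anchors 145 kb (130 to 170) and 95 kb (90 to 95). Saline loops had medians of 230 kb (200 to 260) and 160 kb (150 to 170) with 10 kb anchors. With 5 kb anchors they were 157.5 kb (100 to 190) and 105 kb (100 to 110), and these intervals overlapped. Loops under 100 kb made up 25.3% of saline hub loops and 36.5% of the others, a difference of -11.1 points (-16.3 to -6.02). They made up 23.1% and 39.3% in the morphine map, a difference of -16.2 points (-19.0 to -13.4). Partners of 1 hub were at least 17.5 kb apart in these lists, and the part of this spacing in the difference was not tested.

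**Figure D4:**
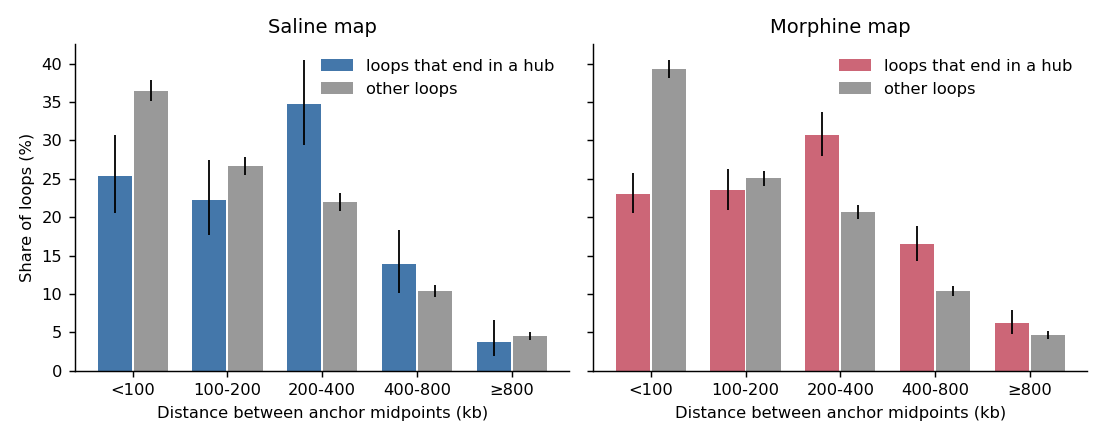
Bars give the share of loops, in percent, in 5 classes of span (distance between anchor midpoints in kb), for loops that end in a hub (coloured) and all other loops (grey), with 95% exact binomial intervals. Hub loops have a lower share under 100 kb and a higher share from 200 to under 400 kb, 34.8% against 22.0% for saline and 30.7% against 20.7% for morphine.

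The enrichment of hub loops was lower than that of other loops in some classes of span and close to it in others. Over all loops the median enrichment was 4.33-fold (4.08 to 4.79) at saline hubs and 4.66-fold (4.58 to 4.76) elsewhere, and 3.84-fold (3.72 to 3.94) and 3.82-fold (3.76 to 3.87) in the morphine map. Enrichment rose with span in these lists, and hub loops were longer. Among morphine loops of 200 to under 400 kb with 10 kb anchors, hub loops were less enriched, at 3.33-fold (3.17 to 3.53) against 3.94-fold (3.84 to 4.00). They also lay in a denser background, with 9.12 expected contacts (8.14 to 9.90) against 6.04 (5.70 to 6.45), and had more observed contacts, 29 (27 to 31) against 23 (23 to 24). With 5 kb anchors the same class gave 5.20-fold (4.78 to 5.45) against 6.16-fold (5.92 to 6.46). In the saline map, 10 kb anchors gave 4.29-fold (4.00 to 4.64) against 4.77-fold (4.60 to 4.88), with intervals that overlapped slightly. Under 100 kb with 10 kb anchors, the intervals of hub and other loops overlapped in both maps. Over both anchor sizes the medians were 3.04-fold and 2.98-fold in the morphine map under 100 kb, and 6.39-fold and 6.41-fold in the saline map from 400 to under 800 kb. The share of loops with all 4 FDR values of the authors' deposited table at or under 0.01 was 45.9% at saline hubs and 46.9% elsewhere, with a background of 46.8%. It was 48.4% and 45.0% in the morphine map, with a background of 45.4% and a difference of 3.46 points (0.208 to 6.71).

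The local background differed in sign between loops with a hub at the left and at the right anchor. The lists give an expected count from a horizontal and from a vertical strip of pixels beside each loop. At saline loops whose left anchor was a hub, the horizontal background exceeded the vertical one at 84 of 137 loops (61.3%, 52.6 to 69.5), with a median log2 ratio of 0.11 (0.02 to 0.24). At loops whose right anchor was a hub it did so at 52 of 151 (34.4%, 26.9 to 42.6), with a median log2 ratio of -0.20 (-0.29 to -0.11). The morphine map gave 307 of 510 loops (60.2%, 55.8 to 64.5) and 0.11 (0.06 to 0.15) for left hubs, and 193 of 452 (42.7%, 38.1 to 47.4) and -0.10 (-0.16 to -0.03) for right hubs. Loops without a hub had medians of -0.02 and -0.01. Which of the strips runs through which anchor is not stated in the files, so only the change of sign with the side of the hub is reported. The other loops of a hub lie in the same row or column of pixels and can add to a strip. The strip values are thus tied to the choice of the hubs, and the contrast is a description. The part of those other loops in it was not tested.

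**Figure D5:**
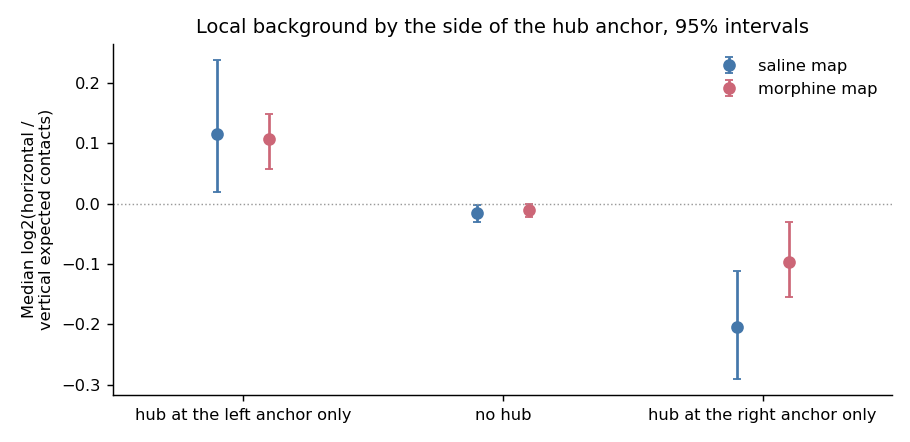
Points give the median log2 ratio of horizontal to vertical expected contacts in the saline (blue) and morphine (red) map, for loops with a hub at the left anchor, no hub, or a hub at the right anchor, with 95% order-statistic intervals. The medians are 0.11 in both maps for left hubs and -0.20 (saline) and -0.10 (morphine) for right hubs.

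Most hubs sent all their loops to 1 side. This was so for 73 of 99 saline hubs (73.7%, 63.9 to 82.1), 39 to the left and 34 to the right, and for 223 of 347 morphine hubs (64.3%, 59.0 to 69.3), 105 to the left and 118 to the right. Among regions with 2 ends, 80.9% of saline and 79.7% of morphine regions did so. Hubs fell below these values by 7.16 points in the saline map, where the interval of the difference included 0 (-16.2 to 1.83), and by 15.4 points (10.1 to 20.8) in the morphine map. With more ends there are more ways to have a loop on each side, so the share is lower at hubs also without any preference between the sides. Among regions with 4 or more ends, 4 of 6 saline and 28 of 53 morphine hubs (52.8%, 38.6 to 66.7) ran to 1 side.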

How the data were processed

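Hi-C loop and domain lists of cortical neurons from the saline and morphine groups were analysed. The authors' deposited loop lists give, per the file headers in a HiCCUPS layout, each loop's anchors, its observed contact count, a q-value (FDR) and an expected number of contacts for each of 4 surroundings of the pixel (a donut, its lower-left part, a horizontal and a vertical strip). The deposited domain lists give domains in bins of 40 kb and a score of boundary strength, on an unstated scale, for either end. The aligner, the callers and the settings are not given in the sources used here. Some positions run past the chromosome ends of hg19, the build in the submitters' processing notes, so no build is given and no gene was placed. Library depth is unknown, and every called loop had at least 8 contacts.

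The members, comparisons and lists of alternatives were chosen with earlier results of these data known. Anchors lie on a 5 or 10 kb grid, so a region is at most 10 kb wide. Named hubs are the morphine hubs with 5 or more ends, the saline hubs with 4, the 5 hubs of each map with most contacts, hubs of both maps with 4 or more ends in 1 of them, and hubs with 2 or more differential loops. Boundaries are the bins beside each domain. Counterparts are loops with both anchors overlapping after an extension of 10 kb, and contact ratios used reciprocal nearest matches of equal anchor size. Intervals are exact Clopper-Pearson for shares, exact Poisson for contacts and order-statistic for medians, with a normal approximation for differences of shares and ratios of shares. Computations used Python 3.11.15, pandas 2.3.3, numpy 2.4.6, scipy 1.17.1 and networkx 3.6.1, and were tested on simulated data. Alternatives changed the merging, the threshold, the loops kept, the matching distance, the boundary distance, the background and the chromosomes.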

Additional observations from a re-analysis of the deposited data

How the results depend on the processing

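The hub shares, their ratio, the shares at boundaries, in the other map and to 1 side, and the loop medians and shares were recomputed with 1 choice changed. Links between hubs, triangles, the background strips, the chromosome shares and the contrasts of hubs with other regions or loops were not among them. Of the 117 values recomputed, 58 stayed within the spread of the original value and 59 moved. The 58 include values that could not move, from merging at an overlap of 5 kb and from counting different partners. The same holds for saline hubs limited to 10 kb regions, since all of them are 10 kb wide. The cause of the moves was not tested beyond what each construction shows. Extending anchors by 5 kb before merging joins neighbouring anchors and raised the hub share to 3.23% (saline) and 7.60% (morphine), the overlap of morphine hubs with saline anchors to 82.0%, and lowered the share of hubs with loops to 1 side to 50.9% and 46.8%. At 4 or more ends the hub shares were 0.0613% and 0.374% (ratio 6.10), 16.7% of 6 saline hubs were near a boundary, 86.8% of morphine hubs overlapped a saline anchor and 52.8% of them were to 1 side. With all 4 FDR values at or under 0.1 the hub shares were 0.494% and 1.58% (ratio 3.19) and the overlap of saline hubs was 77.1%. At equal loop numbers the morphine share was 1.50% by donut FDR and 1.67% by contacts (ratios 1.48 and 1.65), with overlaps of 86.1% and 81.3%. With 10 kb anchors only, the hub shares were 0.551% and 0.798% (ratio 1.45), the overlaps 58.3% and 57.4%, the shares to 1 side 91.7% and 70.5%, and 3.28% of morphine hubs were near a boundary; fewer loops enter these counts. Within the boundary bin itself lay 4.04% of saline and 1.44% of morphine hubs, and within 200 kb 25.3% and 17.3%. Extending regions by 10 kb gave an overlap of 85.3% for morphine hubs. Without chromosomes 10, 16, 19 and 20 the morphine hub share was 2.03%. Counting partners within 50 kb once gave 0.807% and 2.17%. Counting ends per 10 kb bin gave 1.02% and 2.67%.

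Counterparts of hub loops fell to 32.8% (saline) and 23.7% (morphine) without an extension of the anchors, and rose to 43.1% (morphine) with 20 kb. Saline enrichment was 3.59-fold and 3.62-fold against the horizontal and vertical backgrounds, 3.99-fold and 6.23-fold with 10 and 5 kb anchors, and 3.07-fold under 100 kb. Morphine enrichment was 3.72-fold, 3.29-fold and 3.33-fold against the lower-left, horizontal and vertical backgrounds, 3.33-fold and 4.32-fold with 10 and 5 kb anchors, and 3.04-fold under 100 kb. Median spans were 157.5 kb (saline, 5 kb anchors), 280 kb and 145 kb (morphine, 10 and 5 kb). The observed contact ratio was 1.47 at hubs of both maps, 1.30 at saline hubs and 1.44 without the 4 chromosomes, and the expected ratio 1.61 at saline hubs and 1.67 without the 4 chromosomes. Merging only from an overlap of 5 kb, or counting different partners, gave the same hubs. Neither could change them, since anchors lie on a 5 or 10 kb grid and every hub had as many partners as ends.

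No paired analysis was possible because the lists hold pooled groups, although the labels of both groups share replicate numbers; for the same reason leaving out a library was not possible. Choices added after seeing the data were the 200 kb window, the 10 kb bins, the partners counted once, the 10 kb regions and the span classes of 200 to under 400 kb and under 100 kb. Loops rest on few contacts, with a median of 21 (saline) and 26 (morphine) at hubs, so single loops have wide intervals.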
